A study of Mus musculus with 14 samples.

Results

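Ahsg, Fetub, Hrg, Kng2 and Kng1 are 5 neighbouring genes of mouse chromosome 16, listed here in their annotated order, that encode secreted proteins with cystatin-type domains. All 5 were measured, among 19938 genes in all, each by the only probe annotated to its symbol. The genes were chosen by their position and by the vitamin C difference of Kng2 and Fetub on these same arrays, so the vitamin C values of the cluster below are a description and carry no test. Expression was measured on 14 whole-transcript arrays of MEFs, which are primary embryonic fibroblasts of the mouse, infected with retroviruses for Sox2, Klf4 and Oct4 (SKO), which start reprogramming towards pluripotency, or for green fluorescent protein (GFP) as the control. From day 2 after the second infection every culture received stem cell medium with serum and LIF, either with vitamin C at 50 µg/ml or without it. SKO cells with vitamin C and SKO cells without it were sampled on days 3, 4, 5, 6, 8 and 10. GFP cells, also with and without vitamin C, were sampled on day 3. Each condition and day has 1 array of a bulk culture, in which infected and uninfected cells are not told apart. The labels do not give the strain of the mice or say that arrays come from separate cultures, so a p-value here measures only the spread between arrays of 1 time course. In the fits of day and vitamin C, also those with GFP cells, that spread holds any real change of the vitamin C difference between days.

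Kininogens are plasma proteins from which kallikreins cut out bradykinin, a peptide that dilates vessels and causes pain. Their cystatin-like domains inhibit cysteine proteases. Mice carry a pair of kininogen genes, Kng1 and Kng2. Ahsg encodes fetuin-A, which binds calcium phosphate and holds back mineral deposits in soft tissue, and Fetub encodes fetuin-B, an inhibitor of the egg protease ovastacin that keeps the egg coat penetrable before fertilization in mice. Hrg encodes histidine-rich glycoprotein, a plasma protein that binds heparin, plasminogen and metal ions. In the body these are known above all as genes of hepatocytes.

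Array medians lay between 5.19 and 5.28 on the log2 scale. Fibroblast markers were strong on every array, with list means between 10.0 and 10.3 in SKO cells with vitamin C, 10.1 and 10.3 in SKO cells without it and 10.9 and 10.8 in GFP cells with and without it (10 genes). On day 3, 6 of the 10 were lower in SKO than in GFP cells (median -0.85), where 8.43% of all genes were lower. Pou5f1, which encodes Oct4, was higher by 7.17 ± 0.17 (SE, log2) in SKO than in GFP cells of day 3 (limma, adjusted p = 2.09e-11), Klf4 by 1.01 ± 0.17 (adjusted p = 0.00128) and Sox2 by 0.60 ± 0.18 (adjusted p = 0.0337). On the second principal component (20.1% of the variance) the SKO arrays of days 3 and 5 lay between -35.9 and -16.4 and those of days 4, 6 and 8 between 4.08 and 27.1, with day 10 at 0.69 with vitamin C and -2.85 without it. For the cluster genes, results that compare days are therefore also given for day 10 against day 5 and for day 8 against day 4. The second of these was chosen after seeing these values. Neighbours and gene lists are not given for them.

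The stretches before the annotated starts of the cluster genes are shown because 4 of the genes were higher with vitamin C on every day of SKO cells. The remaining 1, in their midst and with weak signals, was not. RefSeq promoters of mouse build GRCm38.p6 were matched for 4 of the 5 genes, not for Kng1. The 250 bases before the start of each gene are printed 5′ to 3′ on the gene's own strand, with capitals for every match to a searched motif. Ahsg has chr16:22891765-22892014 and Fetub chr16:22918132-22918381 (of its 2 listed promoters, the one at the annotated gene start), both on the plus strand. Hrg has chr16:22950822-22951071 on the plus strand, and Kng2 has chr16:23029102-23029351 on the minus strand.
Ahsg: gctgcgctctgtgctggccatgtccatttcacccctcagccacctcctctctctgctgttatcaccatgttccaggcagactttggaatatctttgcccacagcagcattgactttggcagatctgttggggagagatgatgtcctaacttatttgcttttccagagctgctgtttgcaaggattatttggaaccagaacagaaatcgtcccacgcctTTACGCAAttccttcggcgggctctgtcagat
Fetub: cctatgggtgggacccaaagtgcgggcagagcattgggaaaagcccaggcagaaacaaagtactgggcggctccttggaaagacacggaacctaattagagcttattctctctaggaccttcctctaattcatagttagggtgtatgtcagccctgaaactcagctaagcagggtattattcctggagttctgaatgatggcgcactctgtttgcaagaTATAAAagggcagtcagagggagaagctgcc
Hrg: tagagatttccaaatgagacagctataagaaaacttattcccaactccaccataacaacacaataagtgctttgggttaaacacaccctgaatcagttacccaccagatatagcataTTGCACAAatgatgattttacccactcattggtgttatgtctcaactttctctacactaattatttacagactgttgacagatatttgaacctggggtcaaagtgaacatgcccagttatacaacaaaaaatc
Kng2: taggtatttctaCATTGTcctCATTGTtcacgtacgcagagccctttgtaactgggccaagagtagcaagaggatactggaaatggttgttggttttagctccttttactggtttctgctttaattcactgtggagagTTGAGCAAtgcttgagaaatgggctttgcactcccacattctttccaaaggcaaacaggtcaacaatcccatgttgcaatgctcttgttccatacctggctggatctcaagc
Motifs were searched on both strands in the same 250 bases of all 32851 listed promoters. The C/EBP-type motif TTGCNNAA, of liver-enriched factors, had a match in Ahsg (positions -32 to -25), Hrg (-133 to -126) and Kng2 (-112 to -105), against 9.56% of all promoters. A TATA box (TATAAA) stood at -31 to -26 in Fetub, against 12.4% of all promoters. The Sox core ACAATG occurred at 2 places in Kng2 (-238 to -233 and -229 to -224), against 10.7% of all promoters. None of these 4 windows held the interferon-stimulated response element in the form GAAANNGAA (7.13% of all promoters), the STAT-type TTCNNNGAA (7.02%), the Oct4 octamer ATGCAAAT (1.60%), the KLF-type CCNCACCC (14.9%), the HNF1-type TTAATNATT (1.40%) or the HNF4-type CAAAGTCCA (0.384%). No match overlapped another. A match is only a match of letters, and the arrays give no binding data.

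The central question of the study is what vitamin C changes in cells that carry the 3 factors, and each day offers 1 treated and 1 untreated SKO array. Kng2, Fetub, Kng1 and Ahsg were higher with vitamin C on each of the 6 days, by 3.60-fold, 2.80-fold, 2.12-fold and 2.00-fold on average, whereas Hrg differed by 0.02 on the log2 scale. Of all 19938 genes 3.9% were higher on all 6 days, and 0.201% were at least 2-fold higher on average, as were Kng2, Fetub and Kng1 (Ahsg lay just under 2-fold). By limma 0.933% of all genes passed in either direction. In the order of all genes by this difference Kng2 was in place 1, Fetub in place 9, Kng1 in place 31, Ahsg in place 41 and Hrg in place 8164.

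Kng2, one of the kininogen genes, had log2 signals of 5.01, 5.61, 7.11, 7.06, 7.93 and 8.75 in the treated SKO cells of days 3, 4, 5, 6, 8 and 10, against 4.52, 4.11, 5.02, 5.11, 5.39 and 6.25 in the untreated ones. The treated array was the higher on every day, and from day 5 on every treated array lay above every untreated one. In the same order of days the difference was 0.49, 1.50, 2.09, 1.95, 2.54 and 2.50, with a mean of 1.85 ± 0.76 (SD of the 6 values). It was thus smallest on day 3, after 1 day of vitamin C, and largest on days 8 and 10 (5.82-fold and 5.66-fold).

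Kng1, the other kininogen gene, had log2 signals of 4.93, 5.51, 6.17, 6.27, 6.57 and 6.50 with vitamin C, against 4.22, 4.38, 5.17, 5.13, 5.05 and 5.51 without it. Its difference stayed in a narrower band than that of Kng2, between 0.71 (day 3) and 1.52 (day 8), with a mean of 1.08 ± 0.26 (SD of the 6 values). Over the 14 arrays Kng1 and Kng2 correlated with Pearson r = 0.951, which is a description, since these arrays share their days. The 2 genes are paralogs, the probes' letters were not used here, and binding of one gene's transcripts by the other's probe was not tested.

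Fetub, the fetuin-B gene, climbed in both arms. Its log2 signals were 5.53, 6.67, 8.00, 8.69, 8.82 and 8.36 with vitamin C, against 4.92, 5.45, 5.65, 6.24, 7.14 and 7.78 without it. The difference was largest in the middle of the course. From day 3 to day 10 it was 0.61, 1.22, 2.35, 2.46, 1.68 and 0.58, with a mean of 1.48 ± 0.82 (SD of the 6 values). On days 5 to 10 the treated signal stayed between 8.00 and 8.82 while the untreated signal continued upward to 7.78, so that the arms were close again on day 10.

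Ahsg, the fetuin-A gene, had 34.1% of all genes at or below its mean signal. Its log2 signals were 4.11, 4.58, 5.31, 5.50, 5.78 and 6.25 with vitamin C, against 3.80, 4.03, 4.36, 4.16, 4.50 and 4.69 without it. The difference was 0.31 on day 3 and 1.56 on day 10 (mean 0.999 ± 0.49, SD of the 6 values). Day by day it ran with that of Kng2 (r = 0.900 over 6 days) and less with that of Fetub (r = 0.277 over 6 days).

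Hrg lies between Fetub and Kng2 and did not follow them. Its log2 signals were 2.77, 2.85, 2.78, 2.83, 2.44 and 2.84 with vitamin C, against 2.73, 2.92, 2.88, 2.48, 2.64 and 2.72 without it. Treated arrays were higher on 3 of 6 days, and the difference ranged from -0.21 to 0.35. All 14 values lay in the lowest part of the array's range (6.92% of all genes had a mean at or below its own), so an absent transcript and a weak one cannot be told apart by this signal. Hrg was the only member with a mean below the signal of 4.54 that marks the 6646 weakest genes, and the means of the other 4 lay above it. Some of their arrays did lie below 4.54: both GFP arrays for Fetub, and 2 of 6 SKO arrays without vitamin C for Kng1 and for Kng2 (days 3 and 4). Ahsg (mean 4.58) passed only through SKO cells with vitamin C: 1 of 6 of those arrays lay below 4.54, against 5 of 6 SKO arrays without vitamin C and both GFP arrays.

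**Figure D1:**
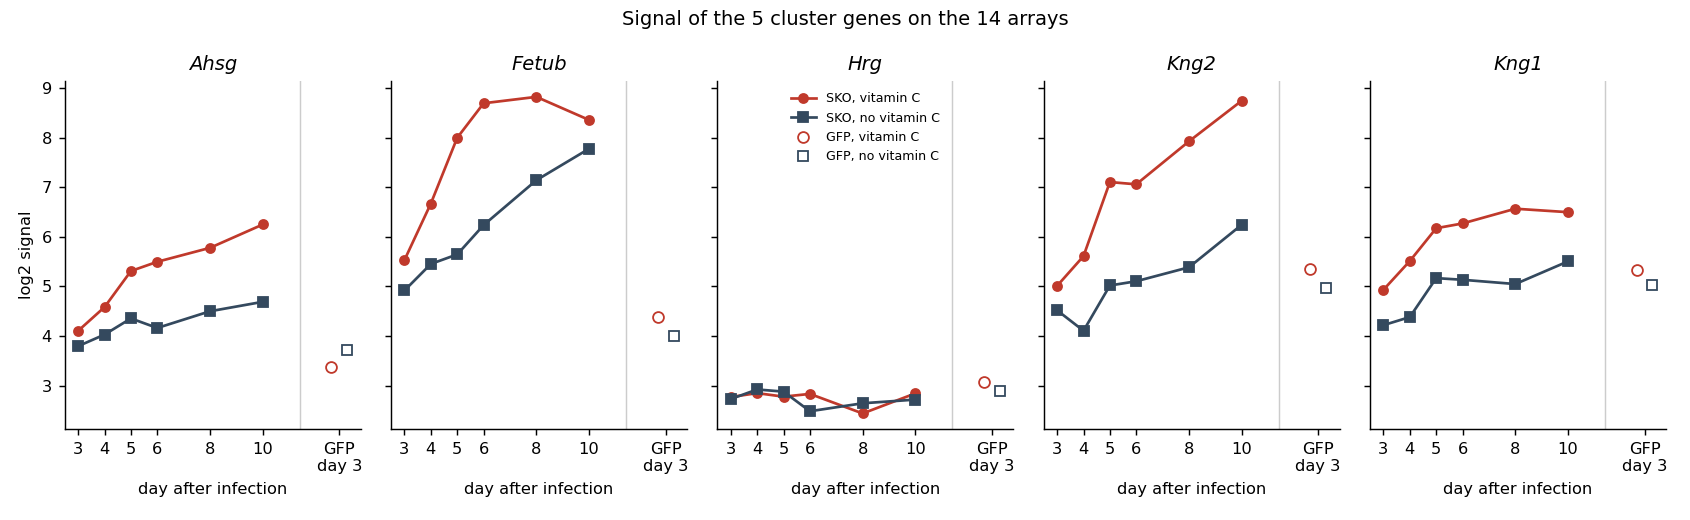
Log2 signal of each cluster gene (y axis) against the day after infection (x axis) in SKO cells with vitamin C (filled circles) and without it (filled squares), with the 2 GFP arrays of day 3 as open symbols at the right. Each point is 1 array. The treated line lies above the untreated one on all 6 days for Ahsg, Fetub, Kng2 and Kng1. The lines cross for Hrg, which stays between 2.44 and 2.92 in SKO cells.

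GFP cells show vitamin C without the 3 factors, with 1 array against 1 and so no test. With vitamin C their log2 signals were 5.35 for Kng2, 5.33 for Kng1, 4.39 for Fetub, 3.37 for Ahsg and 3.07 for Hrg, against 4.98, 5.02, 4.00, 3.71 and 2.90 without it. Kng2, Kng1, Fetub and Hrg were higher with vitamin C by 0.37, 0.31, 0.39 and 0.17, and Ahsg was lower by 0.34. None of these reached 2-fold, which 0.998% of all genes did in either direction. For the genes in the same order, the SKO differences on the same day were 0.49, 0.71, 0.61 and 0.04, and 0.31 for Ahsg. Whether the GFP and SKO differences differ was not tested.

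**Figure D2:**
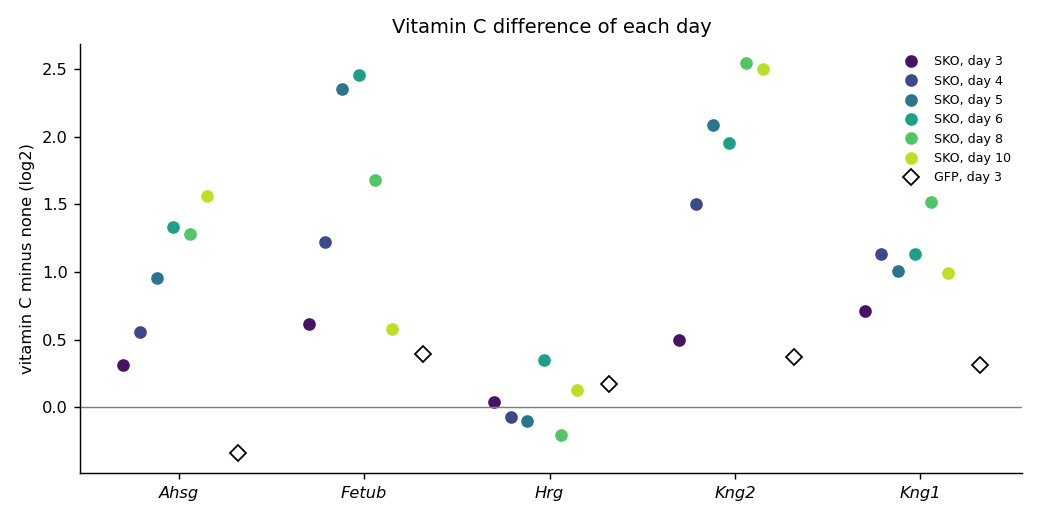
Vitamin C minus no vitamin C on the log2 scale (y axis) for each cluster gene, with 1 filled point for each day of the SKO cells and an open diamond for the GFP pair of day 3. Kng2, Kng1 and Ahsg have their smallest SKO difference on day 3, Fetub peaks on days 5 and 6 (2.35 and 2.46), and Ahsg alone has a GFP difference below 0 (-0.34).

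The time course asked what changed as SKO cells were followed to day 10. The rule that chose the genes did not use this comparison, though it used vitamin C differences on the same arrays. Fetub, Kng2, Ahsg and Kng1 rose from days 3 and 4 to days 8 and 10, and Hrg did not pass the test. Of the 19938 genes 14.6% passed this test and 8.03% rose. Fetub was higher by 2.38 ± 0.29 (SE, log2; 5.21-fold, 4 arrays against 4, limma adjusted p = 0.000189) and Kng2 by 2.26 ± 0.27 (4.80-fold, limma adjusted p = 0.000173). Ahsg was higher by 1.18 ± 0.18 (2.26-fold, limma adjusted p = 0.00115) and Kng1 by 1.14 ± 0.13 (2.21-fold, limma adjusted p = 0.000117). Some of these signals lay below 4.54, the mark of the 6646 weakest genes. Ahsg did so in both arms on day 3 and without vitamin C on days 4 and 8. Kng2 and Kng1 did so without vitamin C on days 3 and 4. Hrg differed by -0.16 ± 0.11 (limma adjusted p = 0.430). The late arrays of Fetub, from 7.14 upward, all lay above the early ones, which reached 6.67. Of all genes 6.31% were separated in this way. For Kng2, Kng1 and Ahsg the late untreated and early treated arrays overlapped.

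Within the arm with vitamin C, Kng2 was higher late than early by 3.02 ± 0.31 (SE, log2; limma adjusted p = 0.00279), Fetub by 2.49 ± 0.38 (limma adjusted p = 0.0121), Ahsg by 1.67 ± 0.25 (limma adjusted p = 0.0118) and Kng1 by 1.31 ± 0.24 (limma adjusted p = 0.0269), so that 4 of 5 genes rose, against 1.73% of all genes. Within the arm without vitamin C, Fetub rose by 2.27 ± 0.30 (limma adjusted p = 0.0320), and it was the only one of the 5 to pass, against 0.657% of all genes. There Kng2 differed by 1.50 ± 0.29 (limma adjusted p = 0.0704), Kng1 by 0.98 ± 0.20 (limma adjusted p = 0.0851) and Ahsg by 0.68 ± 0.18 (limma adjusted p = 0.171). Each of these fits rests on 6 arrays with 3 residual degrees of freedom. The difference between the arms in this change was not tested. The treated arrays are also those whose height over the untreated ones chose Kng2 and Fetub. The count in that arm is thus not independent of the choice.

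**Figure D3:**
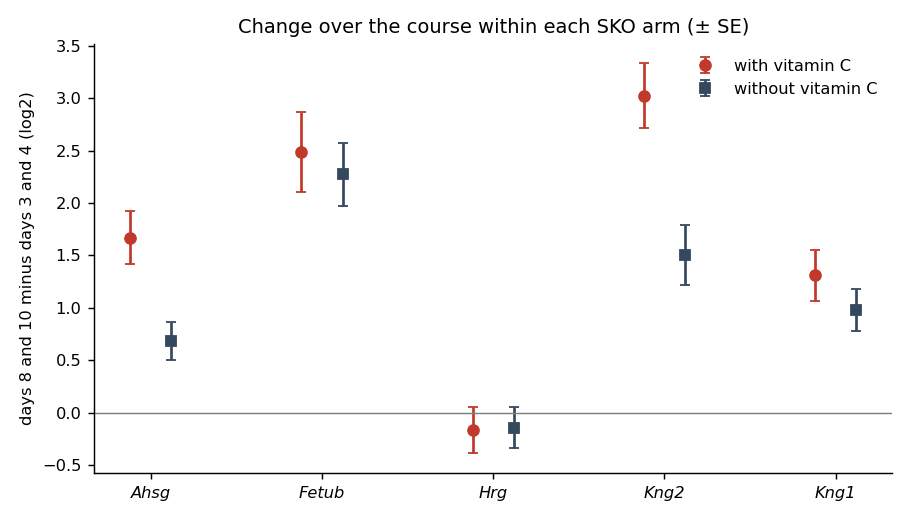
Mean of days 8 and 10 minus mean of days 3 and 4 on the log2 scale (y axis) for each cluster gene, with vitamin C (circles) and without it (squares); bars are ± 1 SE of the limma fit within each arm of 6 arrays. Fetub changes by 2.49 and 2.27 in the 2 arms, Kng2 by 3.02 and 1.50, and Hrg lies near 0 in both.

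From day 3 to day 10, with 2 arrays against 2, Fetub rose by 2.84 ± 0.40 (SE, log2), Kng2 by 2.73 ± 0.38, Ahsg by 1.52 ± 0.26 and Kng1 by 1.43 ± 0.18 (limma adjusted p between 0.000378 and 0.00266), and Hrg differed by 0.03 ± 0.16. Here 6.55% of all genes rose and 5.64% fell (12.2% together). With day 5 as the base none of the 5 passed (Kng2 1.43, limma adjusted p = 0.0884; Fetub 1.25, Ahsg 0.64 and Kng1 0.33, limma adjusted p between 0.185 and 0.511), and 1.21% of all genes rose. From day 4 to day 8 Fetub (1.92 ± 0.40), Kng2 (1.80 ± 0.38) and Kng1 (0.86 ± 0.18) rose, with limma adjusted p between 0.0316 and 0.0321, whereas Ahsg differed by 0.83 ± 0.26 (limma adjusted p = 0.140). In that comparison 1.85% of all genes rose and 2.34% passed in either direction.

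The GFP cultures of day 3 serve as the control for what the 3 factors do early. Fetub had 5.53 and 4.92 in SKO cells with and without vitamin C, against 4.39 and 4.00 in GFP cells, a difference of 1.03 ± 0.43 (SE, log2; limma adjusted p = 0.118). Kng1 had 4.93 and 4.22 in SKO cells, against 5.33 and 5.02 in GFP cells (-0.60 ± 0.22, limma adjusted p = 0.0828). The SKO and GFP arrays did not overlap for 4 of the 5 genes (all but Kng2), as for 56.3% of all genes. Kng2 (-0.40 ± 0.44), Ahsg (0.41 ± 0.34) and Hrg (-0.23 ± 0.16) had limma adjusted p between 0.376 and 0.606. None of the 5 passed, whereas 17.6% of all genes did (9.22% higher, 8.43% lower). At an unadjusted p under 0.05, by limma, 2 of the 5 passed (Kng1 and Fetub) and 29.8% of all genes.

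Single arrays decide these values. Without the treated GFP array the fitted difference of Kng1 was -0.99 (limma adjusted p = 0.0217), and without the untreated GFP array that of Ahsg was 1.08 (limma adjusted p = 0.0497). In these fits the lone GFP array is assumed to vary like the other groups. The vitamin C term that stands in for the missing array comes only from the SKO arrays, whose vitamin C values chose the genes. The arrays themselves were closer: Ahsg had 4.11 in treated SKO cells against 3.37 in treated GFP cells, and Kng1 had 4.22 in untreated SKO cells against 5.02 in untreated GFP cells. With SKO day 4 in place of day 3, Fetub was higher by 1.87 (limma adjusted p = 0.0141), and 7.78% of all genes passed. The difference of Kng2 ran from -1.13 to 0.34 over the alternatives and that of Ahsg from -0.26 to 1.08, so neither has a settled direction. The untreated SKO array of day 4 held the lowest Kng2 signal of all 14 arrays (4.11).

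Ordered by level, the top 4 arrays for Kng2 were those of SKO cells with vitamin C on days 10, 8, 5 and 6, followed by SKO cells without vitamin C on day 10. With 1 array per condition the only spread to set the steps against is the residual SD of the fit to day and vitamin C, which was 0.54 for Kng2, 0.58 for Fetub, 0.34 for Ahsg, 0.19 for Kng1 and 0.14 for Hrg. This SD comes from the spread of the daily vitamin C differences, which were used to choose Kng2 and Fetub. It grows where those differences change with the day, so the steps are a description and no test. For Kng2 4 of the 13 steps between neighbours in the order were larger than this: from treated day 10 to treated day 8, on to treated day 5, from treated day 6 to untreated day 10, and on to treated day 4. For Fetub 2 of 13 steps were larger, below untreated day 10 and below untreated day 6, and no step between neighbours among the 4 highest arrays (treated days 8, 6, 10 and 5) exceeded it. Both GFP arrays were lowest for Fetub, while for Kng2 they stood at places 8 and 12 of 14.

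Genes with the course most like that of Kng2 over the 14 arrays were the predicted gene Gm10791 (Pearson r = 0.951), Kng1 (0.951), the complement factor B gene Cfb (0.949), the chemokine gene Ccl8 (0.945), the interferon-induced Oas2 (0.940) and the epidermal transcription factor gene Trp63 (0.939). Ahsg came at place 21 (0.923) and Fetub at place 194 (0.834). For Fetub they were Entpd1, of extracellular nucleotide breakdown (0.978), the ATP receptor gene P2rx7 (0.977), the pluripotency gene Tfcp2l1 (0.975), the melanocyte gene Tyrp1 (0.972), Avil (0.972) and the calcium channel gene Itpr2 (0.969). Ahsg came at place 76 (0.926), Kng2 at place 467 and Kng1 at place 584. The 2 lists share no gene. Over the 6 daily vitamin C differences alone, the genes most like Kng2 were Gas8, Socs2, Zfp639, Ppp4r3c-ps, Atf5 and Bcl11a (r from 0.984 to 0.992), and those most like Fetub were Tdrp, Slc38a10, Thada, Zfp212, Cblb and Pofut1 (r from 0.967 to 0.991). The mean vitamin C differences of these 12 genes lay between -0.45 and 0.31, so they shared the pattern over days and not the mean difference. They are the highest among all genes over only 6 values, and whether r this high arises by chance was not tested. All these correlations run over arrays that share days and are descriptions.

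The cluster was set in its neighbourhood of 12 measured genes on each side. No other measured gene lies between Ahsg and Kng1. Of the 24 neighbours 2 were higher and 0 lower with vitamin C, against 0.642% of all genes higher and 0.291% lower, and their median difference was 0.04 (all genes -0.01). These were Tbccd1, a gene with a tubulin-cofactor domain, and the second neighbour on the Ahsg side (0.49 ± 0.10, SE, log2; limma adjusted p = 0.0459), and Rtp4, an interferon-induced gene, the ninth on the Kng1 side (1.74 ± 0.31, limma adjusted p = 0.0247). The genes directly beside the cluster differed by -0.11 ± 0.09 (Dnajb11, a chaperone gene) and 0.01 ± 0.11 (Eif4a2, a translation factor gene), and neither passed (limma adjusted p = 0.705 and 0.989). Apart from Rtp4, the differences of the other 23 lay between -0.20 and 0.49. The call of Rtp4 was lost without day 6, 8 or 10, and that of Tbccd1 without any 1 of days 3, 4, 5, 6 and 8.

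Over the time course 5 of the 24 neighbours rose and 0 fell, where 8.03% of all genes rose and 6.57% fell. They were Rtp4 (2.51 ± 0.38, SE, log2), Liph, a phospholipase gene (1.21 ± 0.14), the transcription factor gene Etv5 (0.98 ± 0.11), Tbccd1 (0.70 ± 0.12) and the transcriptional repressor gene Bcl6 (0.51 ± 0.13), with limma adjusted p between 0.000135 and 0.0174. The call of Bcl6 was lost without the treated array of day 3, 4 or 8 or the untreated array of day 10. Dnajb11 (-0.12 ± 0.10) and Eif4a2 (0.17 ± 0.14) did not pass. Against GFP cells on day 3, 5 neighbours were higher in SKO cells and Rtp4 was lower (-2.10 on the log2 scale), where 9.22% of all genes were higher and 8.43% lower. The call of Rtp4 was lost without the treated SKO or the treated GFP array, and those of Tbccd1 and Liph without any of 3 of the 4 arrays. In the GFP pair Rtp4 was higher with vitamin C by 2.17.

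**Figure D4:**
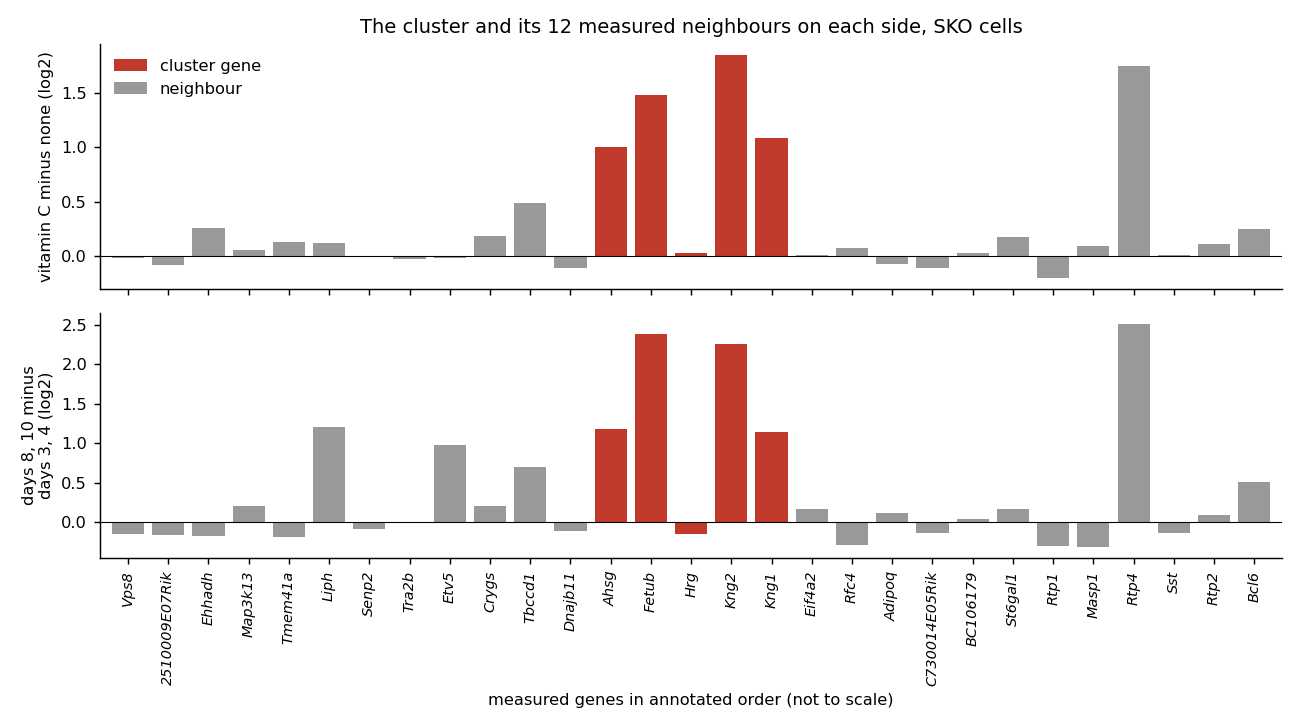
Difference on the log2 scale for the 5 cluster genes and the 12 measured genes on each side, in annotated order, in SKO cells: mean of vitamin C minus none over 6 days (top) and days 8 and 10 minus days 3 and 4 (bottom). The cluster bars other than Hrg stand at 0.999 to 1.85 in the top panel, next to Dnajb11 (-0.11) and Eif4a2 (0.01), and Rtp4 (1.74) stands alone to the right.

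The other genes of the kinin system moved in part. Of 17 measured genes 2 were higher with vitamin C and 0 lower (median 0.00, all genes -0.01), where 0.642% of all genes were higher and 0.291% lower. They were Dpp4, a cell-surface dipeptidyl peptidase gene (1.13 ± 0.13, SE, log2; limma adjusted p = 0.00572), and Serping1, which encodes C1 inhibitor, the plasma inhibitor of kallikrein (0.42 ± 0.09, limma adjusted p = 0.0497). Without any 1 of the 6 days the call of Serping1 was lost and that of Dpp4 was not. Over the course 5 rose and 0 fell (median -0.08, all genes -0.04), where 8.03% of all genes rose and 6.57% fell. Those with the largest change were Dpp4 (1.93 ± 0.16), Serping1 (1.57 ± 0.11) and Cpm, a carboxypeptidase gene whose product trims kinins (1.25 ± 0.14), with limma adjusted p of 0.000148 or less. Xpnpep2 and Ace, which encode kinin-degrading peptidases, also rose, by 0.52 ± 0.11 and 1.21 ± 0.19, the first no longer passing without the treated array of day 3 or day 4. The bradykinin receptor genes Bdkrb1 (0.23 ± 0.21) and Bdkrb2 (-0.08 ± 0.17) did not pass over the course, and neither did F12, the contact factor that activates kallikrein (-0.22 ± 0.12). In SKO against GFP cells of day 3 Dpp4 (2.32 ± 0.24) and the neprilysin gene Mme (1.05 ± 0.23) were higher, and Bdkrb1 (-1.26 ± 0.29) and Prcp (-0.60 ± 0.15) lower (limma adjusted p of 0.0151 or less). Bdkrb1, with a mean signal of 3.52, was among the 6646 weakest genes. Leaving out 1 of the 4 day 3 arrays ended the calls of Mme and Bdkrb1 for 2 of the arrays and that of Prcp for 3, and that of Dpp4 for none.

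Cystatin genes elsewhere in the genome had mostly weak signals. Of 14 measured, 12 were among the 6646 weakest genes, and 0 passed with vitamin C in either direction (median -0.03). Of all genes 0.933% did, a share at which 0 does not set lists this short apart. Over the course Cst3, the cystatin C gene, rose by 0.40 ± 0.12 and the intracellular Cstb fell by 0.47 ± 0.10 on the log2 scale. Of all genes 8.03% rose over the course and 6.57% fell. The call of Cst3 was lost without any 1 of 7 of the 8 arrays compared. Of 12 cysteine protease genes, which encode the enzymes that cystatins inhibit, 0 passed with vitamin C. Over the course Ctss (1.13), Ctsf (1.05) and Ctso (0.84) rose and Ctsc (-0.91) and Ctsh (-0.68) fell, Ctsh no longer without the untreated array of day 3, 4 or 10. Of 11 partners of the fetuins and of histidine-rich glycoprotein 0 passed with vitamin C, among them the ovastacin gene Astl (-0.03). Over the course 2 rose, the calcification inhibitor gene Mgp (0.69) and the alkaline phosphatase gene Alpl (0.74).

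Because the cluster genes are known as hepatocyte genes, other genes of that cell type were read beside them. Of 29 genes of liver-secreted plasma proteins 20 were among the 6646 weakest, Rbp4 (mean 4.29) among them, and 0 passed with vitamin C (median -0.03). Of all genes 0.933% passed with vitamin C in either direction. At that share 0 does not set lists this short apart from all genes. Over the course Cp, the ceruloplasmin gene (0.65 ± 0.11), and Trf, the transferrin gene (0.42 ± 0.10), rose and Itih2 fell by 0.60 on the log2 scale. Of all genes 8.03% rose over the course and 6.57% fell, and 9.22% were higher and 8.43% lower in SKO than in GFP cells. The call of Trf was lost without the treated array of day 3, 4 or 10 or the untreated array of day 3. In SKO against GFP cells 0 of the 29 were higher and 4 lower, led by Itih2 (-1.52), Cp (-1.02) and Rbp4 (-0.70), and the count was 2 without either SKO array or the treated GFP array. Of 13 liver transcription factor genes 0 passed with vitamin C and 0 over the course, and 3 were lower in SKO than in GFP cells, Cebpa (-0.95), Cebpb (-0.78) and Gata6 (-0.50), of which at most 1 passed when any 1 of the 4 arrays was left out. Of 8 defining hepatocyte markers 6, among them Alb (mean 3.46), Afp (3.77) and Ttr (3.42), lay among the 6646 weakest genes. The others, Apoa1 (mean 5.45) and Hnf4a (5.05), did not. The mean of the 8 was between 3.85 and 4.22 in SKO cells with vitamin C, 4.06 and 4.14 in SKO cells without it, and 4.07 and 4.16 in GFP cells with and without it.

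Other lists moved with the same arrays. Of all genes 0.642% were higher with vitamin C, 8.03% rose over the course and 8.43% were lower in SKO than in GFP cells of day 3. Among 10 genes of the interferon response, vitamin C cultures had 6 higher and 0 lower (median 1.39, all genes -0.01), with Ifit3 (1.71), Oasl2 (1.65) and Oas2 (1.55) largest among those that passed. That count was 1 without day 5 and 0 without day 6, 8 or 10. Over the course 9 of the 10 rose. The list mean ran from 4.61 to 7.50 in SKO cells with vitamin C, from 4.49 to 6.10 in those without it, and was 6.94 and 5.04 in GFP cells with and without it. On day 3, 5 of the 10 were lower in SKO than in GFP cells, and 0 without the treated SKO array or the treated GFP array. Of 8 pluripotency markers Tfcp2l1 (1.02) and L1td1 (0.53) were higher with vitamin C, though neither without day 6 or day 8, and 4 rose over the course, among them Tfcp2l1 (2.32). Of 6 epithelial markers 0 passed with vitamin C and 4 rose, led by Epcam (2.49). Of 9 macrophage markers 0 passed with vitamin C and 8 rose over the course; their mean ran from 4.36 to 5.89 in SKO cells with vitamin C, from 4.41 to 6.05 in those without it and was 5.10 and 4.77 in GFP cells with and without it. The part of these cells and programmes in the signals of the cluster was not tested. In a bulk culture more cells of a kind and more RNA per cell cannot be told apart.

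**Figure D5:**
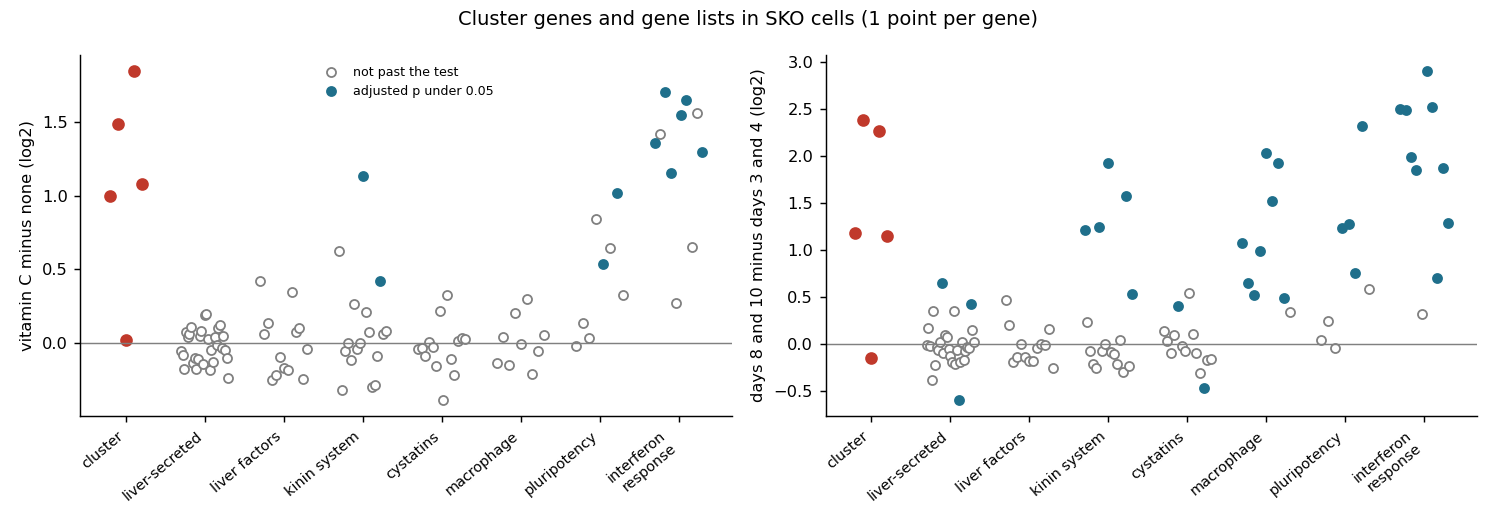
Difference on the log2 scale for each gene of the cluster (left column of each panel) and of 7 lists, in SKO cells: mean of vitamin C minus none over 6 days (left panel) and days 8 and 10 minus days 3 and 4 (right panel). Filled blue points passed limma at an adjusted p under 0.05; cluster genes are drawn in red whatever their test. Most liver-secreted genes and liver factors lie near 0 in both panels (in the right one Cp at 0.65, Trf at 0.42 and Itih2 at -0.60 passed), 4 of the 5 cluster genes lie well above it, and so do most interferon response genes.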

How the data were processed

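Each of the 14 samples is total RNA on 1 Affymetrix whole-transcript array, per the labels' protocols. The deposited log2 signals, 1 for each probe on each array, were made by the authors with RMA and Partek, per the submitters' processing notes; no versions are named in those notes. That they are log2 was read from their range (0.724 to 14.1), and they were not normalized again. RMA compresses differences of weak genes. The number of arrays limits the precision.

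Of 28853 probes 21789 had 1 gene symbol, 1621 several and 5443 none listed; the probe with the highest mean stood for each of 19938 genes, of which 19856 were found in RefSeq (GRCm38.p6). Groups follow the labels. limma 3.58.1 in R 4.3.3 (lmFit, eBayes, Benjamini-Hochberg over all genes, threshold 0.05) fitted day and vitamin C to the 12 SKO arrays (5 residual degrees of freedom) or virus-by-day and vitamin C to all 14 (6). Fits within 1 arm took neighbouring sampled days as replicates. The day pairs the arrays of the 2 SKO arms; labels give no replicate numbers. The script was tested on simulated data. Named genes are the members, 12 measured neighbours on each side, up to 3 passing genes per list and the 6 most correlated genes; other list genes and motifs were picked with values in view. Members and lists were chosen with earlier results of these data known. Lists lost 14 genes without a probe of their own. Figures used matplotlib 3.10.9 in Python 3.11.15.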

Additional observations from a re-analysis of the deposited data

Results flagged for a closer look

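The vitamin C difference of Ahsg in GFP cells was -0.34 on the log2 scale, while it was between 0.31 and 1.56 on all 6 days of SKO cells. It stands out because every SKO pair went one way and the GFP pair the other. Both GFP signals (3.37 with vitamin C and 3.71 without it) lie below 4.54, the mark of the 6646 weakest genes. The GFP value rests on 1 array against 1, and the difference between GFP and SKO cells was not tested.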

How the results depend on the processing

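Alternatives were quantile normalization, centring on array medians, leaving out the weakest genes, the mean of a gene's probes, an intensity trend, other days and leaving out arrays. Of the members' values under these, 245 kept their side of the threshold (with no test, moved by less than the SD over days), 7 lost a call and 3 gained one, and none that had passed changed sign. Part of the 245 could not have come out otherwise. A mean vitamin C difference cannot move by that SD when a single day is left out, and the trend or a model without the day does not change it. Each member has a single probe, so the mean of a gene's probes changes no member's difference. In SKO against GFP cells, where neither passed, Kng2 changed sign without the treated SKO array or the untreated GFP array, and Ahsg without the treated GFP array. The mean vitamin C difference over the alternatives stayed between 1.71 and 2.12 for Kng2, 1.29 and 1.66 for Fetub, 0.995 and 1.16 for Kng1, and 0.89 and 1.14 for Ahsg. Members called over the course were 4 under each between-array scaling and without any single array; 1 passed in the arm without vitamin C, and 0 with day 5 as the base. For SKO against GFP 1 passed without the treated GFP array, 1 without the untreated one (each with a lone GFP array assumed to vary like the other groups), and 1 with SKO day 4.

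Of the values of the other named genes, 1331 kept their side, 164 lost a call and 12 gained one; Serping1, at -0.13 in SKO against GFP cells, was 0.70 with SKO day 4.

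The count of all genes for vitamin C was 186, but 364 with an intensity trend, 4 with no replicate block (the day that pairs the arrays left out), and 23 to 263 without 1 day (lowest without day 6; 46 without day 8, 66 without day 5, 71 without day 10). For days 8 and 10 against 3 and 4 it was 2910, but 390 and 151 in the arms with and without vitamin C, and 1838 to 3232 without 1 array (1838 without the treated day 3). For day 10 against day 3 it was 2430, with 345 from day 5 and 964 to 1511 without 1 array. For SKO against GFP it was 3519, with 1551 for SKO day 4 and 1298 to 2758 without 1 array. The cause of these shifts was not tested, beyond the fewer arrays of the last kind.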
